A study of Homo sapiens with 4 samples.

Results

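SNARE proteins drive the fusion of transport vesicles with their target membranes, and the set described here holds 36 genes: 33 SNAREs and 3 factors that take spent SNARE complexes apart. They were chosen by symbol, and all 36 were found among the 58735 genes of the deposited count table. The cells were SUP-M2, an established human line of anaplastic large cell lymphoma, a T cell lymphoma driven in this line by an active ALK kinase. RNA-seq was done on 4 libraries in 2 groups: 2 labelled shGOLM1, with short hairpin RNA against GOLM1, and 2 labelled shscramble, with a scrambled hairpin. The GOLM1 product is a transmembrane protein found in the Golgi. The titles name hairpins while the genotype label of the shGOLM1 samples reads knockout, and nothing in the labels says whether the libraries came from separate cultures or whether both carried the same hairpin sequence. A p-value here thus reflects library-to-library spread alone, and that spread may be technical.

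Each SNARE carries a helical motif that zips with the motifs of its partners across the gap between a vesicle and its target, which pulls the membranes together. SNAREs are sorted into classes by the residue at the centre of that bundle and by position in it: Qa (the syntaxins proper), Qb and Qc (light chains), Qbc (SNAP-type proteins that supply both light chains) and R (the VAMPs and YKT6). A working complex takes Qa, Qb, Qc and R helices, and afterwards the ATPase NSF, held by SNAP adaptors, unwinds it so that the SNAREs can be used again. T and natural killer cells also rely on SNAREs to release lytic granules.

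GOLM1 itself (ENSG00000135052) had 69.6 and 69.5 CPM (counts scaled to equal library totals with TMM factors) in shGOLM1 replicates 1 and 2, against 212 and 213 CPM in shscramble. The level in both shGOLM1 libraries was below both shscramble libraries and nearly equal between them. Its log2 fold change was -1.61 (SE 0.27), the edgeR adjusted p was 0.42, and over the alternatives that p ran from 6.56e-10 to 1. Library totals ran from 27544171 to 30889185 counts in shGOLM1 and from 31608073 to 31972153 counts in shscramble, and a count of 0 allows up to 3 counts, counting error only. The shGOLM1 libraries stood apart from each other: the median absolute difference between replicates over 14166 tested genes was 0.95 log2 units in shGOLM1 and 0.15 in shscramble. Mitochondrially encoded genes took 1.95% and 0.455% of counts in shGOLM1 replicates 1 and 2, against 2.38% and 2.24% in shscramble, and ribosomal-protein genes took 7.55% and 16.3% against 9.91% and 8.44%. The lymphoma markers TNFRSF8, ALK, GZMB, PRF1, IL2RA and BATF3 were all detected and summed to 2089 and 1110 CPM in shGOLM1 and to 1781 and 1667 CPM in shscramble. Within that sum the members differed: TNFRSF8 (CD30) had 539 and 88.4 CPM against 634 and 614 CPM, while PRF1 (perforin) had 621 and 145 CPM against 2.91 and 2.71 CPM. The part of these library differences in the values below was not tested. Summed levels of the B cell list (3 of 5 genes with any count) were at most 0.659 CPM in shGOLM1 and 0.245 CPM in shscramble, those of the epithelial list (4 of 4) at most 3.16 and 0.601 CPM, and those of the fibroblast list (3 of 4) at most 1.04 and 0.902 CPM. The myeloid list (5 of 5) summed to 310 and 232 CPM against 235 and 242 CPM, nearly all of it CSF1R, with CD14, LYZ, ITGAM and MPO each under 1 CPM. MS4A1, CD79B and COL1A2 had no count in any library. In bulk RNA, fewer cells of a kind and less RNA per cell cannot be told apart.

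With all 4 libraries, none of the tested SNARE genes passed the adjusted threshold of 0.05 in edgeR's quasi-likelihood test. Of the 36 genes, 35 passed the filter on low counts, 0 were called, and 1 (STX6) had an unadjusted p under 0.05. Over all 14166 tested genes the share called was 0.0%, and the share with an unadjusted p under 0.05 was 11.8% (8.2% higher and 3.58% lower). DESeq2 called 1 of the 36, VAMP5, as higher, where it called 3.69% of its 15005 tested genes and 3.43% as higher, while limma-voom called 0. In the authors' deposited comparison VAMP5 was the one gene of the set with an adjusted p under 0.05, at 0.0424. Over all 23642 genes with a deposited adjusted p, 501 were higher and 39 lower at that threshold. VAMP5 had a log2 fold change of 7.16 both there and in the DESeq2 fit. The libraries are the same, so the deposited call adds no separate evidence. The shGOLM1 libraries often differed from each other, so values are given library by library.

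Most SNARE transcripts in shGOLM1 replicate 1 stayed near their shscramble level, while many in replicate 2 did not. In both libraries a smaller share of members than of all tested genes lay more than 1 log2 unit away. In replicate 1, 0 of 35 tested genes lay more than 1 log2 unit from the shscramble mean in log2 CPM, where 19.5% of all tested genes did. In replicate 2, 10 lay more than 1 unit above and 2 more than 1 unit below, where 48.7% of all tested genes lay that far in either direction. The median difference over the tested members was -0.09 log2 units in replicate 1 and 0.56 in replicate 2, beside 0.00 and -0.04 over all tested genes. Between the shscramble libraries the median absolute difference of the tested members was 0.09 log2 units and the largest 0.32, and between the shGOLM1 libraries these were 0.76 and 3.12. The SNARE set as a whole held 0.139% and 0.165% of all counts in shGOLM1 replicates 1 and 2, against 0.134% and 0.136% in shscramble.

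**Figure D1:**
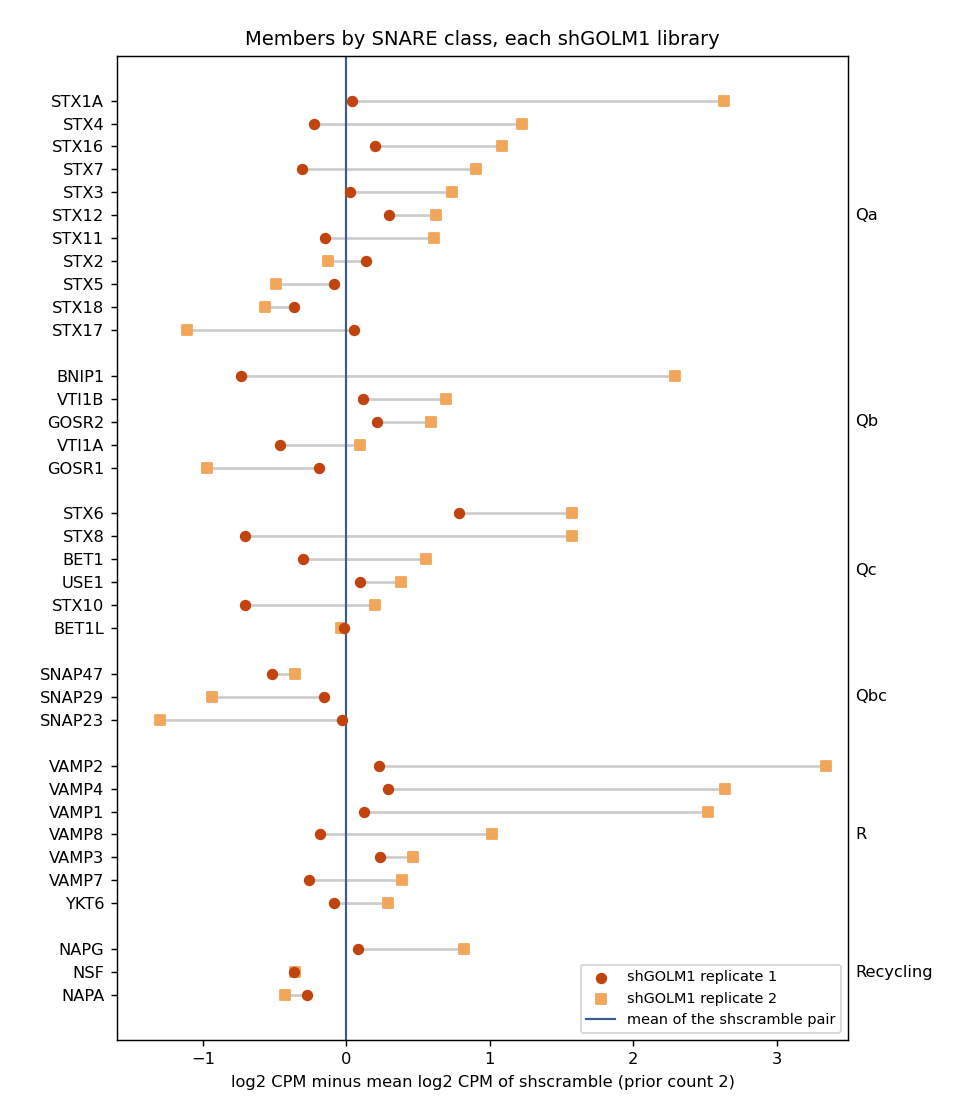
Difference of each tested member from the mean of the shscramble pair, in log2 CPM (x axis), for shGOLM1 replicate 1 (circles) and replicate 2 (squares), with members down the page by SNARE class. All circles lie between -0.73 and 0.79, whereas the squares run from -1.30 (SNAP23) to 3.34 (VAMP2), and STX6 has the rightmost circle.

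Each shGOLM1 library was also fitted alone against the same shscramble pair, on the assumption that a lone library varies as that pair does. These fits thus compare libraries and not conditions. Because they share the shscramble pair, calls in both fits are not independent of each other. Replicate 1 alone called 1 of 35 tested members higher and 6 lower, where 20.4% of 15106 genes were called higher and 24.1% lower (44.5% in all). Replicate 2 alone called 21 of 36 higher and 9 lower, where 33.3% of 15268 genes were called higher and 34.1% lower (67.4% in all). Only STX6 was called higher in both of these fits (9.83% of genes were), SNAP47 and STX18 were called lower in both (14.2% of genes), and BNIP1 and STX8 were called in opposite directions (11.4% of genes). By level, both shGOLM1 libraries lay above both shscramble libraries for 10 tested members and below for 8, near the 25.2% and 26.5% of all tested genes. With library totals in place of TMM factors the counts were 12 and 8, beside 23.4% and 26.7% of all tested genes: STX1A and STX3 joined those above, STX10 and VTI1A those below, and STX5 and BET1L dropped out.

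STX6 was the one member called higher in each shGOLM1 library alone. It encodes the Qc-SNARE syntaxin 6 of the trans-Golgi network and early endosomes, and lies on chromosome 1 at 180972712 to 181023121 (GRCh38, minus strand). It had 68.7 and 119 CPM in shGOLM1 replicates 1 and 2, against 42.2 and 37.6 CPM in shscramble. Both shGOLM1 libraries were above both shscramble libraries, at 1.72 and 2.98 times the shscramble mean. Over all 4 libraries edgeR gave a log2 fold change of 1.23 (SE 0.39) and an adjusted p of 0.42. In the lone fits its edgeR adjusted p was 2.83e-05 for replicate 1 and 8.91e-09 for replicate 2, and over its alternatives the value ran up to 1. Among the Qc-SNAREs, STX6 held 16.7% of the summed FPKM (the authors' depth- and length-scaled level) in each shGOLM1 library, against 8.08% and 7.94% in the shscramble libraries.

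The partners that syntaxin 6 zips with at the trans-Golgi network did not show one pattern. STX16, the Qa-SNARE of that complex, had 72.2 and 133 CPM in shGOLM1 against 61.9 and 63.9 CPM in shscramble, both shGOLM1 libraries being higher, with a log2 fold change of 0.71 (SE 0.40, edgeR adjusted p 0.51). VAMP4, the R-SNARE, had 15.1 and 77.2 CPM against 12.6 and 12.1 CPM. VTI1A, the Qb-SNARE, had 19.6 and 29.04 CPM against 25.9 and 28.5 CPM, so that the groups overlapped. STX10, a Qc-SNARE of the same compartment and a close relative of STX6, had 42.5 and 79.7 CPM against 74.1 and 64.8 CPM: replicate 1 was below both shscramble libraries and replicate 2 above both. Its share of Qc-SNARE FPKM was 37.3% and 40.5% in shGOLM1, against 51.2% and 49.3% in shscramble. STX12, a Qa-SNARE of early and recycling endosomes, had 39.4 and 49.4 CPM against 29.8 and 34.4 CPM, and VAMP3, which serves the same endosomes, had 40.5 and 47.7 CPM against 35.8 and 33.2 CPM, with no overlap between groups for either. Of the 7 members at the trans-Golgi network and these endosomes, 5 lay higher in both shGOLM1 libraries and 0 lay lower, where 25.2% of all tested genes lay higher and 26.5% lower. With library totals 5 of them lay higher and 2 lower, beside 23.4% and 26.7% of all tested genes.

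Several R-SNAREs and the syntaxin of regulated secretion stood far above shscramble in shGOLM1 replicate 2 and close to it in replicate 1. VAMP2, the synaptobrevin of neurons and endocrine cells (chromosome 17, 8159149 to 8163546, minus strand), had 17.0 and 148 CPM in shGOLM1 replicates 1 and 2, against 13.0 and 16.3 CPM in shscramble. Replicate 2 was 10.1 times the shscramble mean and replicate 1 was 1.16 times. The log2 fold change was 2.50 (SE 1.07), with an edgeR adjusted p of 0.448, and the fit of replicate 1 alone gave 0.20. VAMP4 followed the same order, with a log2 fold change of 1.90 (SE 0.83, edgeR adjusted p 0.451), at 1.22 and 6.26 times its shscramble mean. VAMP1, the close relative of VAMP2, was low outside shGOLM1 replicate 2, at 2.60 and 14.01 CPM in shGOLM1 against 2.45 and 2.32 CPM in shscramble. STX1A, the plasma membrane Qa-SNARE that pairs with VAMP2 at synapses (chromosome 7, 73699206 to 73719672, minus strand), had 6.89 and 42.0 CPM against 6.31 and 7.13 CPM. Its replicate 1 value lay between the shscramble values, so its groups overlapped. For VAMP2, VAMP4, VAMP1 and STX1A alike, replicate 2 was far above the other libraries, and the log2 fold changes of the fits without replicate 2 were between 0.02 and 0.27.

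VAMP5, an R-SNARE best known from muscle (chromosome 2, 85584408 to 85593412), was the one member that did not pass the filter. It had 5 and 34 counts in shGOLM1 replicates 1 and 2 and 0 counts in both shscramble libraries. Against a floor of 3 counts per shscramble library, its mean shGOLM1 level was at least 8.99-fold higher. Replicates 1 and 2 taken alone were at least 1.58-fold and 16.4-fold higher. These bounds take the shGOLM1 counts as exact, and 5 counts carry a large counting error of their own. DESeq2 gave an adjusted p of 0.0402, the edgeR fit of replicate 2 alone gave 0.000264, and over the alternatives that tested it the value ran up to 1. VAMP8 lies on the same chromosome, at 85561562 to 85582031. It encodes endobrevin, an R-SNARE of late endosomes and granules, and had 9.23 and 21.3 CPM in shGOLM1 against 10.8 and 10.1 CPM in shscramble.

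Because VAMP2, VAMP4 and STX1A stood highest in the same library, the DNA before their starts is shown, read from RefSeq promoters on GRCh38.p14 and limited to stretches in no exon of GENCODE 29. The window of VAMP2 is chr17:8162976-8163198, inside the gene as GENCODE draws it. That of VAMP4 is chr1:171742248-171742315 and that of STX1A chr7:73719673-73719919, each directly before the gene. All are on the minus strand and written 5′ to 3′, with matches to a motif in capitals.
VAMP2: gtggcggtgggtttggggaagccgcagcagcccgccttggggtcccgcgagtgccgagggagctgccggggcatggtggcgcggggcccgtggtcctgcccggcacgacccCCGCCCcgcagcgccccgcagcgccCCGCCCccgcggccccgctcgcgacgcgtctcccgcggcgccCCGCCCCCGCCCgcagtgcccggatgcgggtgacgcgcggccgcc
VAMP4: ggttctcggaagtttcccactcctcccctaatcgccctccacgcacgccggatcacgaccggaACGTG
STX1A: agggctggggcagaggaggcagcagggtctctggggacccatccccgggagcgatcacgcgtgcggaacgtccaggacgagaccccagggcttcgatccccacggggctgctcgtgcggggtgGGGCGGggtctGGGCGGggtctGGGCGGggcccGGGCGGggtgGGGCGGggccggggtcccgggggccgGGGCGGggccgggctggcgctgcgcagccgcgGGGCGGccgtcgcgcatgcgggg
Searched on both strands were the E-box CACGTG, the hypoxia response core ACGTG (which lies within every E-box), the amino acid response core TGATGNAA, the box CCAAT and the GC box GGGCGG. GC boxes matched 4 times in the VAMP2 stretch and 7 times in that of STX1A, and the ACGTG core matched 1 time in that of VAMP4. The stretches are 223 bases for VAMP2, 68 for VAMP4 and 247 for STX1A, so these match counts cannot be compared between them. In the 250 bases before the start, a GC box was present for 22 of the 33 members with a RefSeq promoter. VAMP2, VAMP4 and STX1A were all among these 22. Of 35116 promoters, 42.6% held a GC box. A member counted if any of its promoters matched, while the percentages are per promoter, so counts and percentages cannot be compared directly. The E-box was present for 8 members (6.34% of promoters), ACGTG for 14 (18.5%), CCAAT for 11 (32.0%) and TGATGNAA for 0 (3.14%). A match describes letters, not binding.

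**Figure D2:**
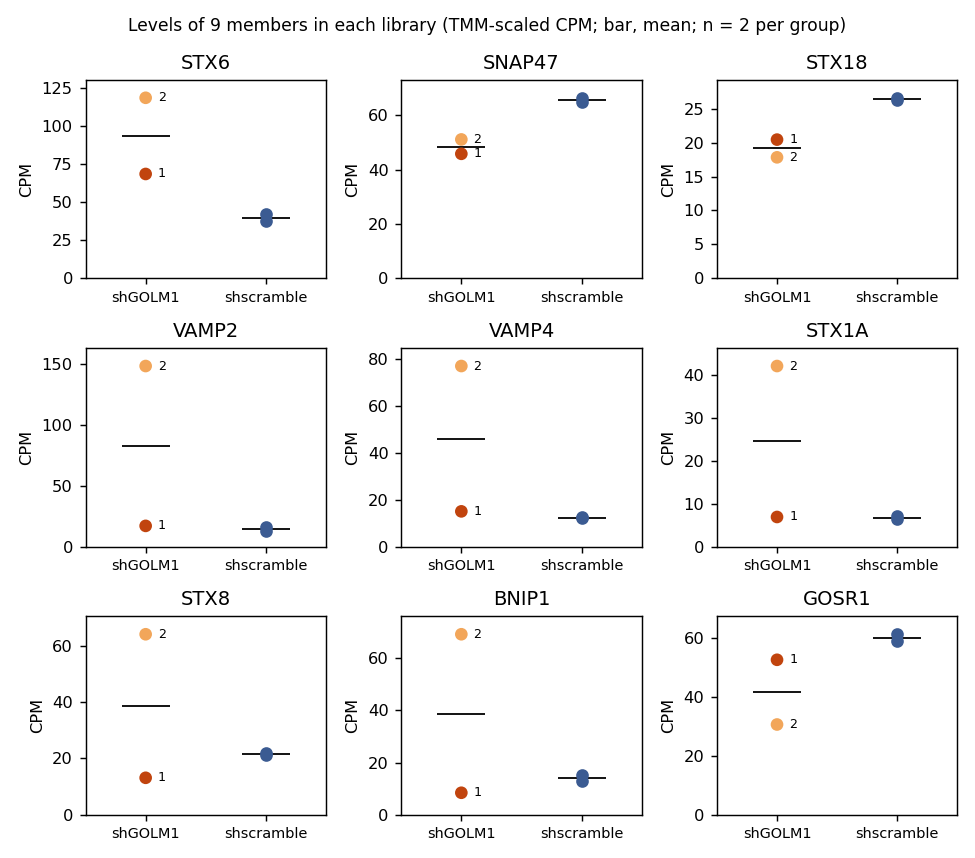
CPM (y axis, from 0) of 9 members in the shGOLM1 libraries (left, numbered by replicate) and the shscramble libraries (right), with a bar at each mean. STX6, SNAP47, STX18 and GOSR1 have both shGOLM1 points on one side of shscramble, VAMP2, VAMP4 and STX1A have replicate 1 near shscramble, and STX8 and BNIP1 have shscramble between the shGOLM1 points.

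Per length, the make-up of the R-SNARE class differed in shGOLM1 replicate 2. VAMP2 held 5.38% and 23.6% of the summed R-SNARE FPKM in shGOLM1 replicates 1 and 2, against 3.87% and 5.06% in the shscramble libraries. YKT6, a lipid-anchored R-SNARE that works between the endoplasmic reticulum, the Golgi and autophagosomes, held 48.3% and 31.5% against 50.1% and 48.5%. Its own level was 173 and 225 CPM in shGOLM1 against 191 and 177 CPM in shscramble, with overlapping groups and a log2 fold change of 0.11 (SE 0.30). VAMP7, a longin R-SNARE of late endosomes and lysosomes in the pseudoautosomal region, had 45.4 and 71.4 CPM against 54.3 and 54.6 CPM. Reads of genes there can be split between the X and Y copies. Of the 7 tested R-SNAREs, 4 lay higher in both shGOLM1 libraries (VAMP1, VAMP2, VAMP3, VAMP4) and 0 lay lower, under TMM factors (where 25.2% of all tested genes lay higher and 26.5% lower) and under library totals (23.4% and 26.7%) alike.

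**Figure D3:**
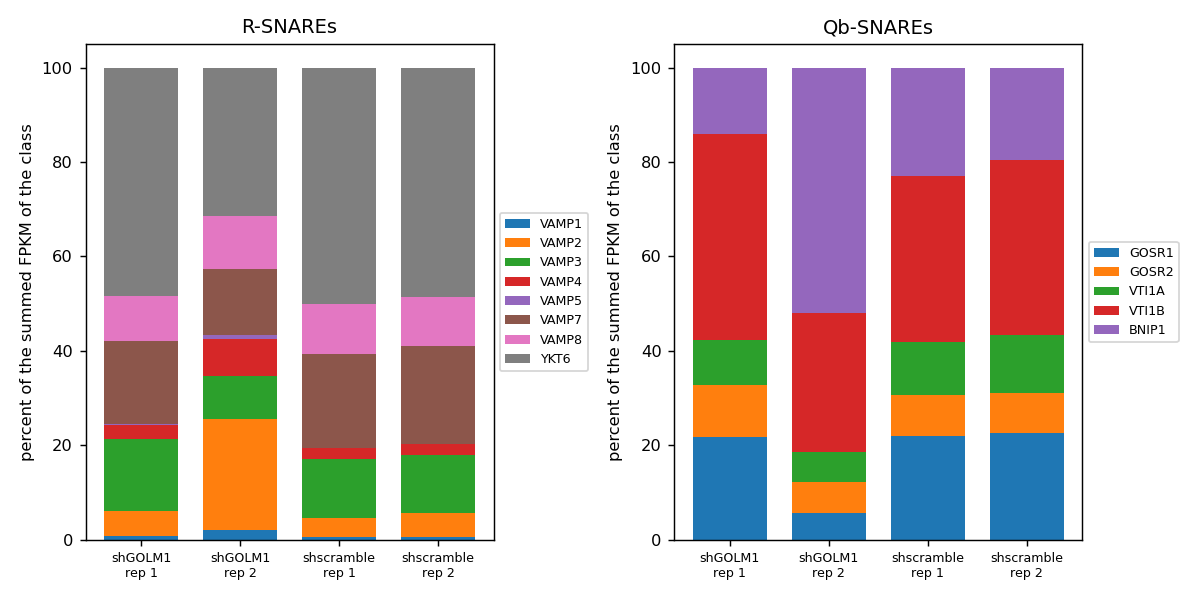
Share of the summed FPKM (y axis, percent) that each R-SNARE (left panel) and each Qb-SNARE (right panel) held in each library, with the shGOLM1 libraries left of the shscramble libraries. In shGOLM1 replicate 2 the VAMP2 part is 23.6% and the BNIP1 part 52.1%, while shGOLM1 replicate 1 and the shscramble libraries have at most 5.38% and 22.9%.

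In order of FPKM the abundant members were YKT6, STX11, STX10, VAMP7 and BET1L in shGOLM1 replicate 1 and in both shscramble libraries. In shGOLM1 replicate 2 the order was STX11, YKT6, VAMP2, STX10 and BNIP1, with VAMP7 at rank 6 and BET1L at rank 13. YKT6 and STX11 were close to each other, at 45.4 and 42.1 FPKM in shGOLM1 replicate 1 and 58.8 and 71.2 FPKM in replicate 2, against 51.0 and 48.5 FPKM in shscramble replicate 1 and 47.3 and 46.3 FPKM in replicate 2. STX11 is the syntaxin of cytotoxic lymphocytes, whose inherited loss causes a hemophagocytic syndrome. It had 83.4 and 141 CPM in shGOLM1 against 94.4 and 90.1 CPM in shscramble, and its log2 fold change was 0.28 (SE 0.37, edgeR adjusted p 0.754). STX11 made up 42.9% and 45.5% of Qa-SNARE FPKM in shGOLM1 and 47.2% and 45.2% in shscramble. BET1L, a Qc-SNARE of the Golgi stack, was nearly level over the 4 libraries, with 60.7 and 59.9 CPM against 61.2 and 61.5 CPM. At the low end by FPKM stood STX1A, STX7, VAMP1 and VAMP5 in shscramble. Such ranks depend on the deposited gene length, which is 16387 bases for STX7, a gene with 26.9 and 22.5 CPM in shscramble. VAMP2 ranked 20 and 3 among the 36 in shGOLM1 replicates 1 and 2, against 25 and 24 in shscramble, and BNIP1 ranked 26 and 5 against 16 and 20.

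The SNAREs between the endoplasmic reticulum and the Golgi split by partner. STX18, BNIP1 and USE1 form the complex that receives vesicles returning to the endoplasmic reticulum. BNIP1, its Qb-SNARE, also known as a partner of BCL2 family proteins, had 8.45 and 69.2 CPM in shGOLM1 replicates 1 and 2, against 15.2 and 13.1 CPM in shscramble. Replicate 1 was 0.598 times and replicate 2 4.89 times the shscramble mean, on opposite sides, and the lone fits had edgeR adjusted p of 0.00237 and 6.53e-10, in a range up to 1 over the alternatives. STX18, the Qa-SNARE, had 20.4 and 17.8 CPM against 26.2 and 26.6 CPM and so lay lower in both shGOLM1 libraries, with a log2 fold change of -0.46 (SE 0.31, edgeR adjusted p 0.561). USE1, the Qc-SNARE, had 14.8 and 18.0 CPM against 14.8 and 12.9 CPM.

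In the forward direction, STX5 is the Qa-SNARE shared by the complexes of entry into and passage through the Golgi. It had 17.6 and 13.2 CPM in shGOLM1 against 18.9 and 18.4 CPM in shscramble. GOSR1, the Qb-SNARE of the Golgi stack (also called GS28), had 52.5 and 30.6 CPM against 58.9 and 61.1 CPM, below both shscramble libraries in each case, with a log2 fold change of -0.53 (SE 0.38, edgeR adjusted p 0.584). GOSR2, its counterpart at the Golgi entry, lay on the other side, with 38.9 and 50.4 CPM against 33.6 and 33.5 CPM and a log2 fold change of 0.41 (SE 0.30, edgeR adjusted p 0.594). BET1, the Qc-SNARE there, had 20.4 and 37.2 CPM against 26.6 and 23.9 CPM. Of the 9 members placed at the endoplasmic reticulum and the Golgi, 1 lay higher and 4 lower in both shGOLM1 libraries, and with library totals 1 and 2. The shares over all tested genes were 25.2% higher and 26.5% lower, or 23.4% and 26.7% with library totals.

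The late endosomal SNAREs STX7, STX8 and VAMP8 stood above shscramble in shGOLM1 replicate 2 and below it in replicate 1, while VTI1B was above in both. STX8, the Qc-SNARE of late endosome fusion, had 13.1 and 64.0 CPM in shGOLM1 replicates 1 and 2, against 21.9 and 21.0 CPM in shscramble. The lone fits called it lower in replicate 1 (edgeR adjusted p 0.00073) and higher in replicate 2 (2.21e-08), in a range up to 1. STX7, its Qa partner, had 19.9 and 46.2 CPM against 26.9 and 22.5 CPM. VTI1B, the Qb partner, had 62.0 and 92.8 CPM against 55.5 and 59.1 CPM, both shGOLM1 libraries being higher. All 4 partners of that complex (STX7, STX8, VTI1B, VAMP8) were called higher in replicate 2 alone, where the share of genes called higher was 33.3%. ARG2, on the opposite strand from VTI1B and overlapping it, had 125 and 1557 counts in shGOLM1 and 307 and 280 in shscramble, and its part in the VTI1B values was not tested (no source used here gives the strand setting).

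The autophagosome SNAREs STX17 and SNAP29 lay on the low side in the same library. STX17, the Qa-SNARE that autophagosomes acquire for fusion with lysosomes, had 17.9 and 7.995 CPM in shGOLM1 replicates 1 and 2, against 17.0 and 17.7 CPM in shscramble. SNAP29, which supplies its Qbc helices, had 47.1 and 27.4 CPM against 52.6 and 52.6 CPM, below shscramble in both. Their R partner VAMP8 had the opposite order, as given above. Among the Qbc proteins, SNAP23, the SNAP of exocytosis outside neurons, had 11.4 and 4.70 CPM against 11.1 and 12.2 CPM. SNAP47 had 45.8 and 51.0 CPM against 66.4 and 64.8 CPM, lower in both shGOLM1 libraries, with a log2 fold change of -0.44 (SE 0.28, edgeR adjusted p 0.547). All 3 Qbc genes overlap a coding gene on the opposite strand, and each of these neighbours had its lowest count in shGOLM1 replicate 2: PI4KA over SNAP29 had 4803 and 2059 counts in shGOLM1 against 4093 and 4560 in shscramble, LRRC57 over SNAP23 had 395 and 146 against 380 and 359, and JMJD4 over SNAP47 had 250 and 7 against 208 and 195. Overlap was judged by gene span and exons were not compared. Reads from a stretch that both genes of a pair transcribe cannot be told apart without strand. The part of these neighbours in the values was not tested.

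**Figure D4:**
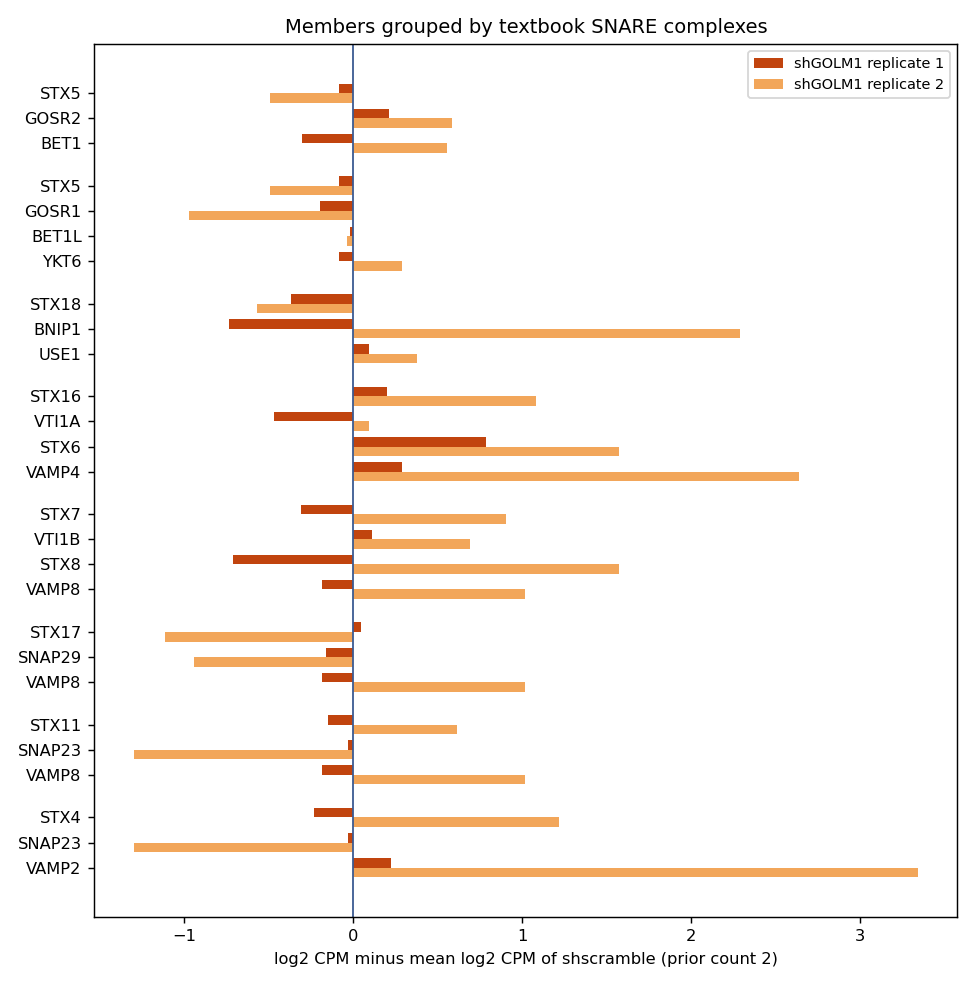
Difference from the shscramble mean in log2 CPM (x axis) for members grouped by textbook SNARE complexes, with shGOLM1 replicate 1 above replicate 2 for each gene. In replicate 2 the bars of STX7, VTI1B, STX8 and VAMP8 all point right (0.69 to 1.57), while STX17 and SNAP29 point left (-1.11 and -0.94) beside VAMP8, and STX18 points left (-0.57) beside BNIP1 (2.29).

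At the plasma membrane, STX4, a Qa-SNARE of constitutive and regulated exocytosis, had 19.3 and 52.9 CPM in shGOLM1 against 23.0 and 22.3 CPM in shscramble, with replicate 1 below and replicate 2 above both. STX3, used at apical membranes and in granule release, had 19.8 and 32.5 CPM against 18.4 and 20.6 CPM. STX2 had 26.0 and 21.6 CPM against 23.0 and 24.4 CPM, and its log2 fold change was 0.01 (SE 0.31). STX1A overlaps BUD23 on the opposite strand, which had 4862 and 5367 counts in shGOLM1 and 5941 and 5351 in shscramble. The STX1A values, at 239 and 957 counts against 206 and 237, thus rest on far fewer reads than its neighbour. Also on opposite strands, VAMP1 (90 and 319 counts against 80 and 77) overlaps TAPBPL (272 and 190 against 206 and 213). STX3 (685 and 739 against 599 and 685) likewise overlaps the pseudogene FABP5P7 (1109 and 1171 against 1337 and 1147). Counts of overlapping genes are raw throughout and are not scaled for library size. Library shGOLM1 replicate 2 had the smallest total (27544171 counts) and the smallest TMM factor (0.828). Its raw counts thus understate its scaled level beside the other libraries, and directions between libraries cannot be read from them directly. The part of these neighbours was not tested.

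The recycling factors did not share a direction. NSF, the ATPase, had 16.2 and 16.3 CPM in shGOLM1 against 19.4 and 22.6 CPM in shscramble, below both shscramble libraries, with a log2 fold change of -0.37 (SE 0.32, edgeR adjusted p 0.645). NAPA, the main adaptor alpha-SNAP, had 33.6 and 30.2 CPM against 39.7 and 41.6 CPM, likewise lower in both, with a log2 fold change of -0.35 (SE 0.28, edgeR adjusted p 0.624). NAPG, gamma-SNAP, had 32.3 and 53.9 CPM against 31.9 and 29.3 CPM, higher in both, with a log2 fold change of 0.50 (SE 0.38, edgeR adjusted p 0.605). Per length, NAPG held 39.1% and 53.4% of the FPKM of these 3 genes in shGOLM1, against 34.9% and 31.0% in shscramble. NSF has a near-identical pseudogene, NSFP1, with 77 and 9 counts in shGOLM1 and 4 and 9 in shscramble, so reads could be split between them. RPS7P11, on the opposite strand within NSF, had 604 and 1451 counts against 1203 and 889, where NSF had 562 and 371 against 632 and 752, and its part was not tested.

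Of the genes that work with SNAREs, none of the 43 tested passed the edgeR threshold with all 4 libraries. An unadjusted p under 0.05 was found for 1 SM protein and 1 tether, where 11.8% of all tested genes had one. DESeq2 called 0, where it called 3.69% of all the genes it tested. The Sec1/Munc18 (SM) proteins clasp SNARE bundles during assembly, and of 8 tested, 3 lay higher and 2 lower in both shGOLM1 libraries (3 and 3 with library totals), beside 25.2% and 26.5% of all tested genes. VPS45, the SM protein that serves STX16, had 31.3 and 22.6 CPM in shGOLM1 against 49.4 and 52.6 CPM in shscramble, with a log2 fold change of -0.92 (SE 0.32, edgeR adjusted p 0.42). STXBP2, the SM protein that serves STX11 in lytic granule release, had 40.8 and 153 CPM against 35.1 and 30.6 CPM, and SCFD2 had 16.6 and 11.4 CPM against 24.3 and 28.5 CPM. Of 5 tested genes of priming and calcium sensing, 1 lay higher and 2 lower, beside the same 25.2% and 26.5%. UNC13D, the priming factor of lytic granules, had 31.4 and 28.8 CPM against 44.4 and 39.6 CPM, SNAPIN had 19.3 and 27.5 CPM against 36.6 and 29.8 CPM, and SYTL3, a granule-tethering synaptotagmin-like protein, had 117 and 335 CPM against 105 and 104 CPM.

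Of 6 tested SNAREs and adaptors outside the set, 3 lay higher and 2 lower in both shGOLM1 libraries (25.2% and 26.5% of all tested genes), and 2 and 1 with library totals (23.4% and 26.7%). SEC22B, the R-SNARE that completes the complexes of STX5 and STX18, had 96.2 and 66.7 CPM in shGOLM1 against 56.4 and 54.3 CPM in shscramble. NAPB, beta-SNAP, had 13.5 and 31.7 CPM against 11.9 and 12.4 CPM. The tethers catch vesicles before SNAREs engage, and of 24 tested, 5 lay higher and 9 lower (25.2% and 26.5% of all tested genes), or 2 and 6 with library totals (23.4% and 26.7%). EXOC6, an exocyst subunit, had 18.4 and 9.49 CPM against 35.8 and 37.9 CPM, with a log2 fold change of -1.40 (SE 0.44, edgeR adjusted p 0.42). ZW10 and NBAS belong to the tether that binds the STX18 complex. ZW10 had 24.0 and 18.1 CPM against 35.0 and 38.7 CPM, whereas NBAS had 57.5 and 75.9 CPM against 36.2 and 44.1 CPM.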

How the data were processed

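RNA was measured in 4 libraries of SUP-M2. Per the labels' protocols, total RNA was extracted on columns and libraries were made with a SMARTER mRNA-seq kit. Aligner, counter and strand setting: not given in the sources used here. Mouse builds (GRCm38, mm10) stand in the submitters' processing notes, yet all 58735 gene identifiers and coordinates of the table equal those of GENCODE 29 on GRCh38. Per the file headers, the deposited counts are raw reads per gene. FPKM values were computed by the authors and deposited beside them, scaled by gene length, with library totals 1.01 to 1.03 times the TMM-scaled ones. They were used for shares and ranks between genes, with no test. The authors also deposited a mean signal per group, which was not used, and their log2 fold change and p-value per gene, quoted once for VAMP5.

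Tests were two-sided and used the quasi-likelihood fit of edgeR 4.0.16 under R 4.3.3 (with limma 3.58.1) on counts of all genes kept by filterByExpr, with TMM factors and Benjamini-Hochberg adjustment over 14166 genes. DESeq2 was version 1.42.0. A prior count of 2 was added for log2 CPM. The fit was tested on simulated data. The members and lists were chosen with earlier results of these data known, and library values are printed for the 14 tested members with the largest change and no overlap, the 6 with the largest shGOLM1 replicate difference, the 5 highest by FPKM, the recycling factors and the untested member, with most others added, and for 3 genes per partner list, of which 1 is not reported here. Sites and complexes were assigned from textbook knowledge. Promoters are RefSeq's, matched for 33 of 36 members. The labels do not say that a replicate number marks a shared culture or day, so samples were not paired. Figures were drawn with matplotlib 3.10.9.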

Additional observations from a re-analysis of the deposited data

How the results depend on the processing

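Among the SNARE genes, 0 were called with other size factors, library totals, no filter, a filter of 5 CPM in 2 libraries, the replicate block or limma-voom, and 1 was called by DESeq2. Leaving out one library gave 0 to 30 called members, 0 without either shscramble library, 7 without shGOLM1 replicate 2 and 30 without shGOLM1 replicate 1. For the partner lists this range was 0 to 33. Over all genes 192 were called with no filter on low counts, 203 with the replicate block, 554 by DESeq2 and 20 to 10290 with one library left out. The block is only a number here: same-numbered libraries did not deviate together (correlation -0.10 across genes), and it changed no call among the members.

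The median log2 fold change of the tested members was 0.28 and ran from -0.10 without shGOLM1 replicate 2 to 0.51 without shGOLM1 replicate 1, and was 0.14 with library totals. GOLM1 had -1.61, passed when a single shGOLM1 library was kept, and ran from -1.66 to -1.63 with one library left out. The sign of some small changes turned: VAMP7 (-0.036) and YKT6 (-0.0026) with library totals, and BET1L (0.092) with the filter of 5 CPM. With one library left out, 6 of the named members turned in sign: BNIP1 from -0.76 to 2.24, STX8 from -0.73 to 1.53, STX10 from -0.73 to 0.15, STX11 from -0.16 to 0.56, VAMP7 from -0.28 to 0.34 and YKT6 from -0.10 to 0.24. Of the other fits of named members, 219 kept direction and side of the threshold. The rest passed it in the same direction, and each of those kept a single shGOLM1 library. No change of size factors, filter, block or method took a named member past the threshold. The causes of these differences were not tested. A floor of 3 counts was 0.0865 to 0.132 CPM in the 4 libraries, and among the members VAMP5 alone came near it.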
